A study of Mus musculus with 12 samples.

Results

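ENSMUSG00000130840 is an unnamed, single-exon gene of the mouse annotation that lies on the strand opposite the first exon of Dad1, next to the start of Abhd4. It is described here with those 2 neighbours, 3 genes of 78317 in the count table. The unnamed gene was chosen by its difference in counts between the 2 groups compared below, so that difference is a description and carries no test. Dad1 and Abhd4 were taken for their position beside it. All 3 genes passed the filter on low counts, as 3 of 17130 genes tested. The unnamed gene passed only through the injured-sire libraries, since it had at most 2 counts in any uninjured-sire library and the filter asks for 10.

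The libraries are bulk RNA-seq of heart ventricle from uninjured C57BL/6J offspring, 6 sired by males with a cardiac cryoinjury (a freezing injury of the heart) on postnatal day 1 and 6 whose sires had no injury. Collection was labelled 3 wpp in both groups for animals also called adult, and the treatment labels read paternal Injured P0 and paternal Uninjured P0. The injured-sire group held 3 males and 3 females and the uninjured-sire group 4 males and 2 females, with no sex, sire, litter or batch given per animal, so each p-value rests only on the spread among these hearts. Replicate 16 of the injured-sire group, marked in its label as a PCA outlier, stayed out of the fitted comparison of 5 against 6 libraries, and its counts are given beside the others.

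Dad1 encodes a small membrane subunit of oligosaccharyltransferase, the complex of the endoplasmic reticulum that transfers a preassembled sugar chain to asparagines of nascent proteins. Its name, defender against cell death, comes from cells that die when the protein is lost. Abhd4 encodes a lipase of the alpha/beta-hydrolase domain family that removes acyl chains from N-acyl phospholipids, a step in one route to N-acylethanolamines such as anandamide. Genes that start close together on opposite strands often share a promoter region, and transcripts that run opposite a coding gene's first exon are commonly seen at such promoters, usually at low levels. The unnamed gene has no symbol in the name table used here, and no function is attached to it.

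The 3 genes lie on chromosome 14 of GRCm39. ENSMUSG00000130840 (chr14:54490988-54491545, plus strand) is 558 bp long with 1 exon. Dad1 (ENSMUSG00000022174, chr14:54472936-54491561, minus strand) has 3 merged exons, and its first exon is 473 bp long (54491089 to 54491561). Of the 558 bp of the unnamed gene, 457 bp (81.9%) lie opposite that first exon and the other 101 bp opposite the first intron. The unnamed gene covers 96.6% of the first exon, from base 17 counted from the Dad1 start, and it ends 16 bp short of that start. Abhd4 (ENSMUSG00000040997, chr14:54491645-54508094, plus strand) has 9 merged exons and starts 84 bp from the Dad1 start and 100 bp from the end of the unnamed gene, on the same strand as the unnamed gene. Dad1 and Abhd4 therefore point away from each other, and the unnamed gene is read toward Abhd4 and ends inside the first exon of Dad1.

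**Figure D1:**
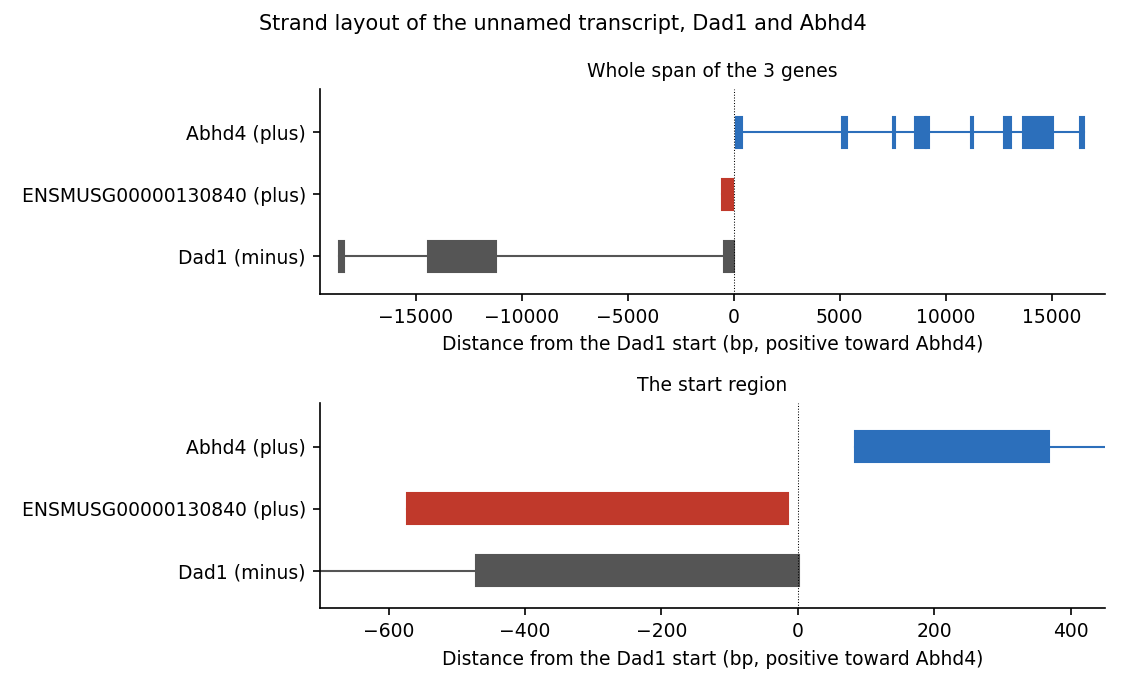
Exons (boxes) and spans (lines) of the 3 genes against the distance from the Dad1 start in bp, for the whole region (top) and the start region (bottom), with the strand beside each name. The 558 bp of ENSMUSG00000130840 lie within Dad1 on the other strand, 457 bp of them opposite the first exon, and end 100 bp before Abhd4.

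Sequence of the files' own build was not used here, so the region is shown from GRCm38. The first exon of Dad1 has 473 bp in GENCODE M21 as in the counted annotation, and its last 211 bases are coding. The strand opposite those coding bases (chr14:54253632-54253842, plus strand, GENCODE M21 on GRCm38) is the strand that reads in the direction of the unnamed gene, and it is shown because this stretch is where a read is assigned to Dad1 or to the unnamed gene by strand alone. Capitals mark the complement of the Dad1 start codon.
Opposite strand of the Dad1 coding bases in exon 1: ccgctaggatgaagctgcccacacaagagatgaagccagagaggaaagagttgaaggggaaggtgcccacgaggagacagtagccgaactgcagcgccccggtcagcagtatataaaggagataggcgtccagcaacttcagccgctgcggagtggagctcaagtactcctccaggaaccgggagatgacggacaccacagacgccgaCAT

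The stretch between the RefSeq starts of Dad1 and Abhd4 is shown on GRCm38.p6, because RefSeq has both neighbours transcribed away from it in opposite directions. RefSeq places the 2 starts 200 bp apart, and 175 of the 199 bases between them lie inside the longer first exon that GENCODE gives Dad1. In the counted annotation the unnamed gene covers that exon from base 17. Taking the exon as the same in both builds, most of the 199 bases therefore also lie within the unnamed gene. The promoter windows of Dad1 and Abhd4 (250 bases before to 50 after each start) share 299 of their 300 bases. The sequence between the RefSeq starts follows (chr14:54253930-54254128, plus strand, 199 bases), with matches to searched motifs in capitals.
Between the Dad1 and Abhd4 starts: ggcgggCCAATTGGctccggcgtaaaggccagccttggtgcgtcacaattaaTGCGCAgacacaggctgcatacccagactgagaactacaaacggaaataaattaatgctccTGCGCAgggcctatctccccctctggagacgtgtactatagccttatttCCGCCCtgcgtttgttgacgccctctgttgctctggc

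The capitals mark the CCAAT box (CCAAT) once on each strand in an overlapping pair, TGCGCA (part of the NRF1 motif) at 2 places and GGGCGG (the GC box) once on the minus strand. Over windows of the same 199 bases in 32817 RefSeq promoters, CCAAT or its complement was found in 29.3%, GGGCGG in 31.0% and TGCGCA in 5.71%. The TATA box (TATAAA), the core of ETS motifs (CCGGAA), the core of the cAMP response element (TGACGT) and the E-box (CACGTG), also searched on both strands, had no match in this stretch. The GC content was 54.8%, with 11 CpG sites, and 54.8% of the promoter windows had a lower GC content. The CCAAT pair and both TGCGCA matches fall in the part that the unnamed gene covers. These matches describe letters and were not tested as sites.

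ENSMUSG00000130840 had reads in every injured-sire library and almost none in uninjured-sire libraries. In the injured-sire group it had 15 counts in replicate 12, 24 in replicate 13, 11 in replicate 14, 23 in replicate 15, 15 in replicate 16 and 13 in replicate 17. In the uninjured-sire group it had 1 count in replicate 18, 0 in 19, 2 in 20, 1 in 21, 0 in 22 and 1 in 23. The lowest injured-sire library, at 11 counts, stood above the highest uninjured-sire library, at 2, so the groups did not overlap. A count of 0 in a single library allows up to 3 counts.

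Pooled over the libraries of a group, the unnamed gene took 101 counts in offspring of injured males, or 0.456 per 1000000 counts (without TMM factors, 95% exact Poisson interval 0.371 to 0.554), and 5 counts in offspring of uninjured males, or 0.0227 per 1000000 (0.00739 to 0.0531). The ratio of these pooled values was 20.0, with an exact 95% interval of 8.31 to 63.1 that covers counting error only. The variance of the raw counts, not scaled for depth, was 1.72 times their mean over the 6 injured-sire libraries and 2.05 times over the 5 that were fitted. The fitted log2 fold change was 4.19 ± 0.779 (SE, 5 against 6 libraries, 95% interval 2.57 to 5.81), a value that depends on few counts in the lower group. Replicate 16 was outside the fit but among the 12 libraries looked at for this gene, and its 15 counts equal the median of 15 in the injured-sire group.

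**Figure D2:**
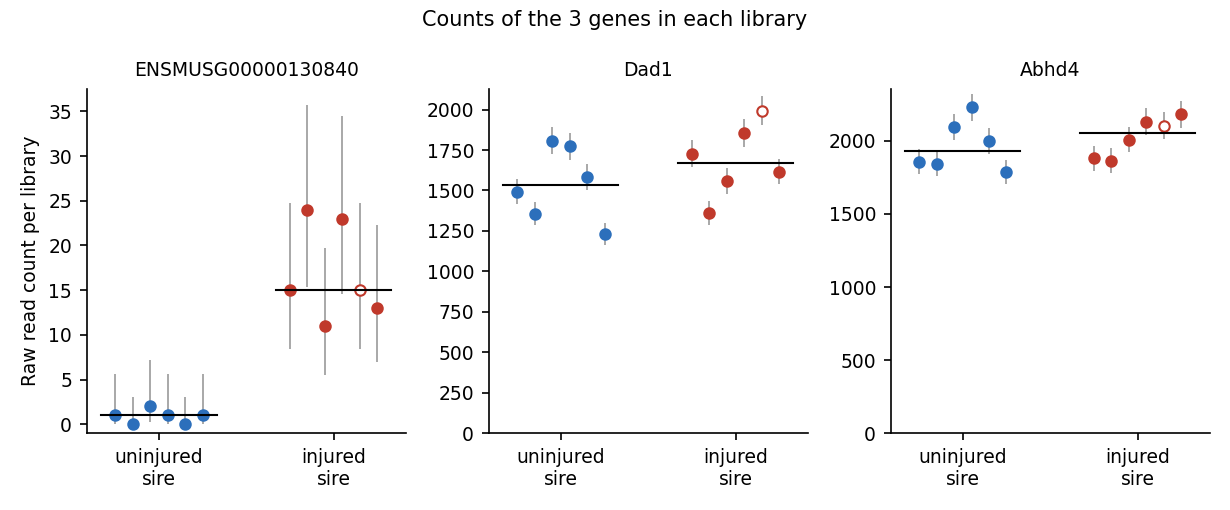
Raw read counts of the 3 genes in each of the 12 libraries, by group and from left to right by replicate number, with the group median as a line. Grey bars are 95% exact Poisson intervals for counts above 0, and for a count of 0 they end at the floor of 3 counts, and the open circle is replicate 16. The unnamed gene had 11 to 24 counts against 0 to 2, while the counts of Dad1 and Abhd4 overlapped between groups.

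Of 78317 genes in the table, 1 had at least 11 counts in all 6 injured-sire libraries and at most 2 in all 6 uninjured-sire libraries, and it was ENSMUSG00000130840. The mirror pattern, with the uninjured-sire group high, was met by 0 genes. The bounds are those of the unnamed gene itself, so this count describes how rare its pattern is in the table and is no test. In the comparison that chose it 18 of 17130 genes (0.105%) were called at an adjusted p below 0.05 (edgeR), 9 higher and 9 lower (0.0525% each). CPM of all 6 injured-sire libraries lay above all 6 uninjured-sire libraries for 31 of 17130 genes (0.181%) and below them for 50 (0.292%). The unnamed gene is among the 9 higher and the 31 by choice, and it was tested only through its counts in the injured-sire group.

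Levels per kilobase of exon set the unnamed gene far below its neighbours. On the RPKM scale (CPM per kilobase of exon) it lay at 0.821 ± 0.273 (SD, n = 6) in offspring of injured males and at 0.0396 ± 0.0339 (SD, n = 6) in offspring of uninjured males. Dad1 lay at 11.7 ± 1.13 and 10.7 ± 0.360 RPKM in the same order, and Abhd4 at 16.8 ± 1.53 and 16.4 ± 0.794 RPKM. In these bulk samples, fewer cells of a type and less RNA per cell cannot be told apart.

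Dad1, the oligosaccharyltransferase subunit on the opposite strand, showed nothing like the separation of the unnamed gene. Its counts in the injured-sire group were 1726 in replicate 12, 1361 in 13, 1557 in 14, 1853 in 15, 1992 in 16 and 1616 in 17. In the uninjured-sire group they were 1491 in replicate 18, 1356 in 19, 1805 in 20, 1773 in 21, 1583 in 22 and 1230 in 23. After scaling for library size, Dad1 lay at 44.1 ± 2.39 CPM in the 5 fitted injured-sire libraries and 41.8 ± 1.41 CPM in the 6 uninjured-sire libraries (SD), and the groups overlapped, from 40.8 to 47.1 CPM against 39.9 to 43.2 CPM. The fitted log2 fold change was 0.08 ± 0.0597 (SE, 95% interval -0.05 to 0.20). Replicate 16, outside the fit, had the highest Dad1 level of the 12 libraries at 53.5 CPM, and with it included the log2 fold change was 0.13.

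Abhd4, the N-acyl phospholipid lipase gene on the same strand as the unnamed gene, also overlapped between groups. Its injured-sire counts were 1881 in replicate 12, 1866 in 13, 2009 in 14, 2130 in 15, 2105 in 16 and 2182 in 17. Its uninjured-sire counts were 1859 in replicate 18, 1844 in 19, 2095 in 20, 2230 in 21, 1998 in 22 and 1787 in 23. Abhd4 lay at 55.0 ± 5.58 CPM in the 5 fitted injured-sire libraries and 53.8 ± 2.61 CPM in the 6 uninjured-sire libraries (SD), and its log2 fold change was 0.03 ± 0.0659 (SE, 95% interval -0.10 to 0.17). Its highest library was injured-sire replicate 17 at 63.6 CPM, and without that library the log2 fold change was -0.03. The intervals of both neighbours leave room for small changes in either direction.

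The proportion of Abhd4 to Dad1 counts had a similar median in both groups, but the 2 genes did not move together between libraries. Pearson r of their log2 CPM was 0.160 over the 12 libraries, 0.243 in the injured-sire and -0.786 in the uninjured-sire group (n = 6 each). Abhd4 had 1.06 to 1.37 counts per Dad1 count in injured-sire libraries (median 1.22) and 1.16 to 1.45 in uninjured-sire libraries (median 1.26). The unnamed gene had 0.706 to 1.76 counts per 100 Dad1 counts in injured-sire libraries (median 0.837) and 0 to 0.111 in uninjured-sire libraries (median 0.0617). The 2 libraries with the highest proportion, injured-sire replicates 13 at 1.76 and 15 at 1.24 per 100, had Dad1 levels of 40.8 CPM, the lowest of the injured-sire group, and 44.6 CPM, while the library highest in Dad1, replicate 16, had 0.753 per 100. Dad1 is the denominator of this proportion, so a high Dad1 count lowers it by construction. The Dad1 counts cover all its exons, not only the part opposite the unnamed gene.

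Counting was set to reverse strand, per the file header, so in the overlap a read went to Dad1 or to the unnamed gene by its strand. The 6 uninjured-sire libraries held 5 counts of the unnamed gene beside 9238 of Dad1, and the 6 injured-sire libraries 101 beside 10105. These Dad1 counts come from all its exons, and 11.7% of its exonic length lies opposite the unnamed gene. That length of 3916 bp joins the exons of all annotated transcripts, so it is not the share of Dad1 reads from this part. In the GENCODE M21 transcript 211 of 339 coding bases lie in the first exon. The share of Dad1 reads that lie opposite the unnamed gene was not measured. The same layout elsewhere in the genome was used to measure opposite-strand counts in each library: genes whose whole span lies within a gene on the other strand and of whose exonic bases at least 50% lie opposite that gene's exons. The table held 1759 such nested genes, of which 96 were tested. Leaving out ENSMUSG00000130840, they took 954 to 1259 per 1000000 counts in injured-sire libraries (median 1108). In uninjured-sire libraries they took 929 to 1190 (median 1089), so the groups overlapped. The 96 tested had a median of 33.9 counts per 100 counts of the opposite gene in injured-sire and 35.0 in uninjured-sire libraries. The unnamed gene had medians of 0.837 and 0.0617 per 100 Dad1 counts. The sum could therefore not show a change at so low a level. Of the other 95 tested, 44 were higher and 51 lower in offspring of injured males. Their median log2 difference was -0.03, against 0.0002 over all genes tested. None of the 95 was called by edgeR, where 0.105% of all genes tested were, and 5 had an unadjusted p below 0.05, as did 1534 of all 17130 (8.96%). A count of 0 called is what that share gives for a set of this size. The number of nested genes with any count had a median of 261.5 in injured-sire and 322 in uninjured-sire libraries, with overlapping ranges. All genes with any count were also fewer in injured-sire libraries, at 21990 to 24543 against 23711 to 26788. The part of wrongly assigned strands in the counts of the unnamed gene was not tested.

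**Figure D3:**
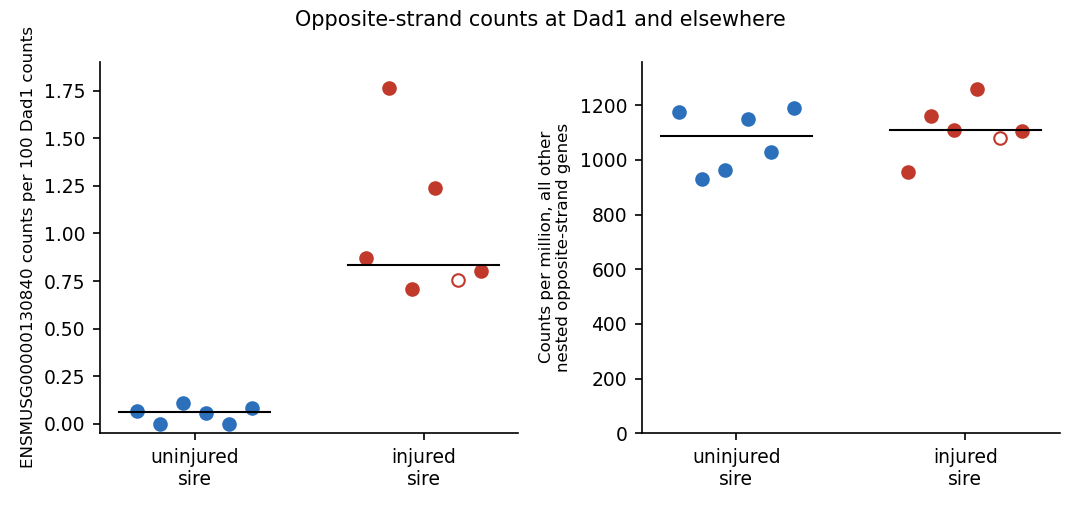
Left, counts of ENSMUSG00000130840 per 100 counts of Dad1 in each library. Right, counts per 1000000 summed over all other nested opposite-strand genes in the same libraries, with group medians as lines and replicate 16 as the open circle. The injured-sire libraries stand apart on the left (0.706 to 1.76 against 0 to 0.111) and overlap with the others on the right. The sum on the right is too large to show a change at the low level of the unnamed gene.

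The libraries held heart muscle transcripts in both groups. The 10 cardiomyocyte markers summed to 89753 to 102735 CPM in injured-sire and 85331 to 97976 CPM in uninjured-sire libraries. Atrial markers were present too, and the 5 listed summed to 3203 to 4024 and 3233 to 3862 CPM in the same order. Of these 5, 4 were higher in offspring of injured males and 1 was called by edgeR, where 0.105% of all genes tested were. The 14 T cell markers summed to 5.20 to 23.7 and 6.72 to 35.0 CPM. Total counts ran from 30537315 to 42090257 per library. The airway markers, 10 of 10 with counts, were unevenly spread, at 1.02 to 633 CPM (median 187) in injured-sire and 0.908 to 386 CPM (median 3.44) in uninjured-sire libraries. Of the airway secretory gene Scgb1a1, injured-sire replicates 12 to 15 and 17 had 627 to 10427 counts, beside 11 to 24 of the unnamed gene, and uninjured-sire replicates 19, 20, 22 and 23 had 8 to 57, beside 0 to 2. The other 3 libraries were injured-sire replicate 16, with 8 counts of Scgb1a1 and 15 of the unnamed gene, and uninjured-sire replicates 18 and 21, with 5574 and 5006 of Scgb1a1 and 1 of the unnamed gene each. The 8 fat markers summed to 1160 to 1645 CPM in injured-sire and 832 to 1529 CPM in uninjured-sire libraries. All 8 fat markers and all 8 airway markers tested were higher in offspring of injured males. Higher too were 4 of 10 cardiomyocyte, 2 of 11 macrophage, 4 of 7 fibroblast and 3 of 6 endothelial markers. Of 12 T cell and 5 erythroid markers tested, 0 were higher. None of these was called by edgeR, where 0.105% of all genes tested were, and the directions were not tested. The part of the airway or fat markers in the counts of the unnamed gene was not tested.

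The tested genes around the locus had fitted differences that were small beside that of the unnamed gene, but some were poorly measured. The 95% intervals on the log2 scale were -1.38 to 1.11 for Gm10366 (at most 24 counts), -0.94 to 1.13 for Gm43305 and -1.10 to 0.36 for Trac. Within 250 kb of the unnamed gene lie 95 further genes, most of them segments of the T cell receptor alpha locus, which adjoins Dad1. Of these, 57 had no count in any library and 9 were tested: 3 were higher and 6 lower (median -0.04 on the log2 scale), and none was called by edgeR, while 1 had an unadjusted p below 0.05. DESeq2 and limma voom also called none of the 9. Over all genes, edgeR called 18 (0.105%), DESeq2 134 and limma voom 16. DESeq2 gave 2326 genes no adjusted p, and such genes count as not called. Trac, the constant region of the T cell receptor alpha chain and the nearest tested gene on the Dad1 side (29325 bp away, chr14:54457978-54461663), had 44 to 179 counts in injured-sire and 56 to 184 in uninjured-sire libraries, a log2 difference of -0.37 ± 0.347 (SE; edgeR, adjusted p = 0.82). Leaving out 1 library moved it to -0.81 (injured-sire replicate 15), -0.24 (injured-sire replicate 13) or -0.08 (uninjured-sire replicate 18). On the Abhd4 side the nearest was Gm43305, a predicted gene 38353 bp away (chr14:54529898-54534949), with 138 to 321 counts against 54 to 425 and a log2 fold change of 0.09 ± 0.461 (SE). It turned negative without injured-sire replicate 15 or uninjured-sire replicate 18, 19 or 21 (-0.01 to -0.08) and was 0.48 without uninjured-sire replicate 20, so its direction is not settled.

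Mmp14, a membrane-anchored matrix metalloprotease gene 177524 bp away (chr14:54669069-54682821), had the smallest p of these neighbours. The level was 37.8 ± 1.57 in injured-sire and 42.3 ± 2.42 CPM in uninjured-sire libraries (SD, n = 5 and 6), -0.16 ± 0.0624 (SE) on the log2 scale, which did not pass after adjustment (edgeR adjusted p = 0.404). Oxa1l, which encodes an insertase of the mitochondrial inner membrane, lay at 108 ± 6.64 against 105 ± 3.81 CPM (SD, n = 5 and 6), 0.05 ± 0.0543 on the log2 scale (SE; edgeR, adjusted p = 0.866). The fitted differences of the tested neighbours ran from -0.37 to 0.09 on the log2 scale.

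**Figure D4:**
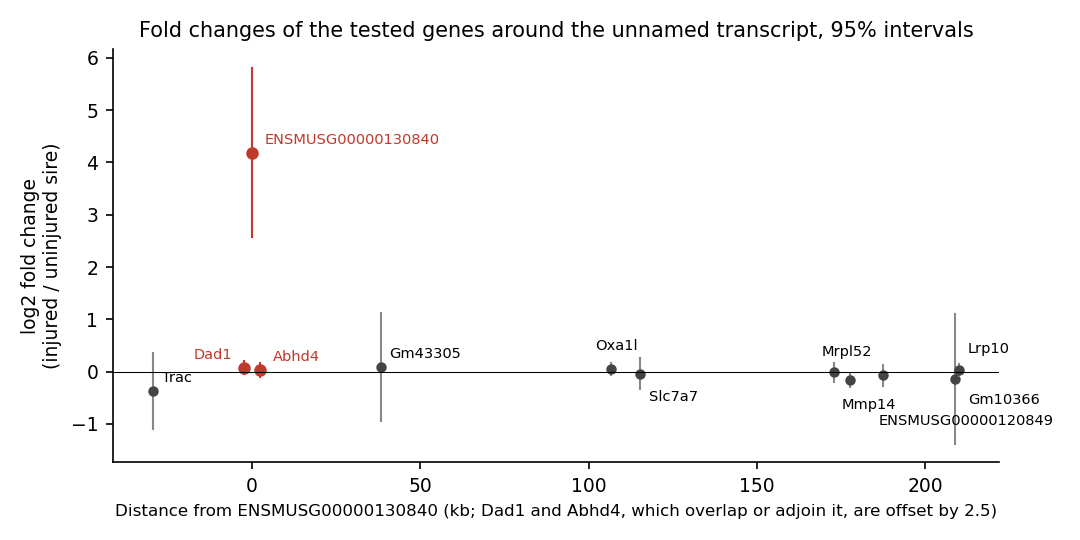
Fitted log2 fold change (injured over uninjured sire, 5 against 6 libraries) with 95% intervals for each tested gene within 250 kb, against the distance from ENSMUSG00000130840 in kb. The unnamed gene, chosen for this difference, lies at 4.19, Dad1 at 0.08 and Abhd4 at 0.03, and the other 9 lie between -0.37 and 0.09.

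No gene that works with Dad1 was called, but with 0.105% of all genes called and 8.96% at an unadjusted p below 0.05, few calls could fall in lists of this size, so counts of 0 here and in the lists that follow are no result about the members. Of 13 listed oligosaccharyltransferase subunits and partners, 12 were matched and tested, Dad1 among them. Of the other 11, 6 were higher and 5 lower (median log2 fold change 0.0051), and edgeR called none, with 2 at an unadjusted p below 0.05. Stt3b, the catalytic subunit that can also act after translation, lay at 83.5 against 74.5 CPM (0.17 ± 0.0577 on the log2 scale, SE, edgeR adjusted p = 0.351). Magt1, a thioredoxin-like subunit of the complex that holds Stt3b, lay at 45.5 against 49.8 CPM (-0.13 ± 0.0620, edgeR adjusted p = 0.556). The other 9 had log2 fold changes of -0.05 to 0.10, among them the scaffold subunits Rpn1 (0.0059) and Rpn2 (-0.01) and the catalytic subunit Stt3a (0.0052). Per kilobase of exon, Dad1 at 11.2 RPKM over the 12 libraries lay in the range of these subunits, from Stt3a at 4.89 to Ddost at 31.6 RPKM. The lengths used join the exons of all annotated transcripts of a gene (3916 bp for Dad1), so this placing depends on the annotation.

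The steps before and beside that reaction were listed too. Of 23 genes that assemble the lipid-linked sugar chain, 12 were higher and 11 lower (median 0.03), with none called by edgeR and 2 at an unadjusted p below 0.05. Dolk, the dolichol kinase, lay at 26.2 against 21.8 CPM (0.27 ± 0.0785 on the log2 scale, SE, edgeR adjusted p = 0.234), and Dpm2, a subunit of dolichol-phosphate mannose synthase, at 8.91 against 11.1 CPM (-0.31 ± 0.117, edgeR adjusted p = 0.394). Of 18 genes of the protein-conducting channel, its TRAP partner and signal peptidase, 9 were higher and 9 lower (median 0.0081), with none called by edgeR and 1 at an unadjusted p below 0.05. That gene was Spcs2, a signal peptidase subunit (-0.15 ± 0.0606, edgeR adjusted p = 0.439), followed by Sec11a, a catalytic subunit of signal peptidase (0.14 ± 0.0696, edgeR adjusted p = 0.581).

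For Abhd4 the lists were its pathway and its family. Of 17 listed genes that make, break or sense N-acylethanolamines, 16 were tested, Abhd4 among them. The other 15 split into 8 higher and 7 lower (median 0.0010), and 0 were called by edgeR, with 0 at an unadjusted p below 0.05. Cnr1, the cannabinoid receptor gene best known from nerve cells, lay at 0.458 against 0.160 CPM (1.50 ± 0.800 on the log2 scale, SE, edgeR adjusted p = 0.605), a low level. Without uninjured-sire replicate 18 the value was 2.67, and with limma voom 2.79. Gde1, a phosphodiesterase that acts downstream of Abhd4, lay at 39.8 against 35.3 CPM (0.17 ± 0.0964, edgeR adjusted p = 0.634), and at 0.09 on that scale without injured-sire replicate 15. Napepld, the enzyme of the alternative route from N-acyl phospholipids, lay at 6.01 against 5.65 CPM and Faah, the hydrolase that degrades anandamide, at 0.566 against 0.749 CPM.

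Of the alpha/beta-hydrolase family, 21 genes were listed and 19 tested, with Abhd4 among them. The other 18 split into 11 higher and 7 lower (median 0.02), with none called by edgeR and 1 at an unadjusted p below 0.05: Abhd18 at 61.4 against 70.3 CPM (-0.19 ± 0.0683, SE, edgeR adjusted p = 0.361). Abhd15, next by p, lay at 2.60 against 2.01 CPM (0.37 ± 0.231, edgeR adjusted p = 0.687). Abhd5, the activator of triglyceride lipase, lay at 53.0 against 51.9 CPM. DESeq2 and limma voom called none of the members of these 5 lists. Members without an adjusted p in DESeq2, such as Cnr1, count as not called. The median log2 fold change over all 17130 genes tested was 0.0002.

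**Figure D5:**
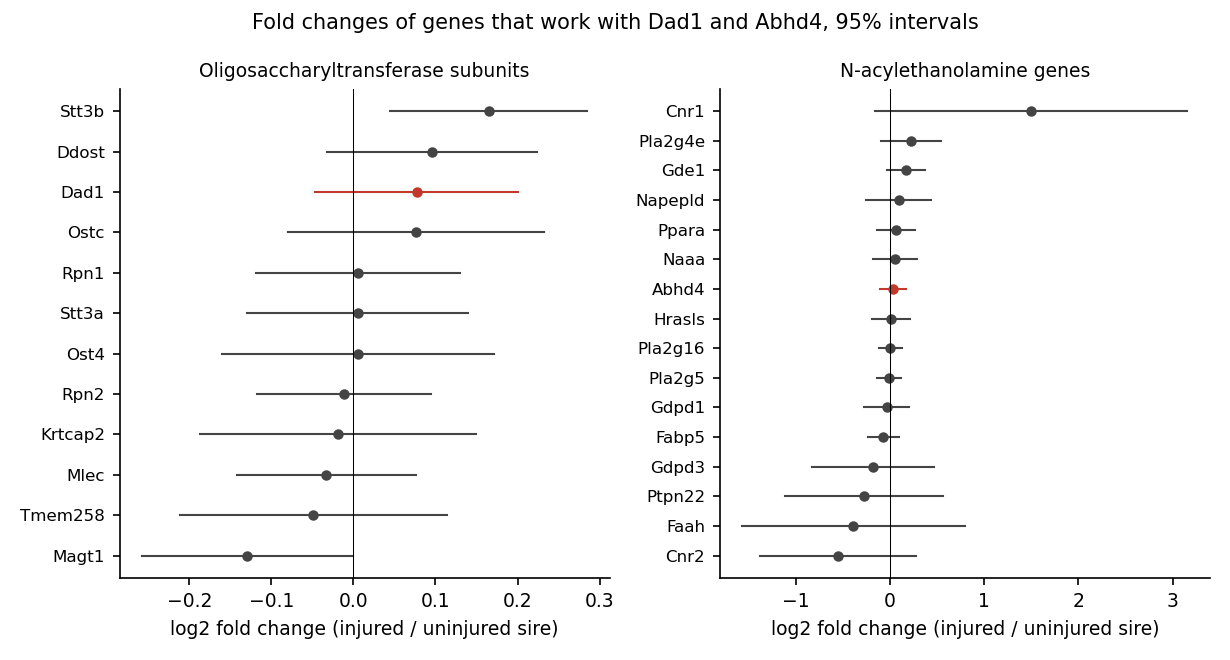
Fitted log2 fold change (injured over uninjured sire, 5 against 6 libraries) with 95% intervals for the tested oligosaccharyltransferase genes (left) and N-acylethanolamine genes (right), with Dad1 and Abhd4 in red. The points run from Magt1 at -0.13 to Stt3b at 0.17 on the left and from Cnr2 at -0.56 to Cnr1 at 1.50 on the right, and none was called.

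Other genes were ranked by how closely their log2 CPM followed ENSMUSG00000130840 over the 12 libraries. The closest 4 were Lrrc17 (Pearson r = 0.912), Dph3 (0.900), Eif1ad (0.887) and Arl4a (0.874), while Dad1 had r = 0.485 and Abhd4 r = 0.124. The libraries fall into 2 separate groups for the unnamed gene, so these values mostly rank genes by how cleanly the groups part. Lrrc17, a leucine-rich repeat gene on chromosome 5, had 7.55 to 10.4 CPM (median 8.14) in injured-sire and 5.69 to 6.58 CPM (median 6.19) in uninjured-sire libraries. Arl4a, an ADP-ribosylation factor-like GTPase gene on chromosome 12, had 40.1 to 51.0 CPM (median 43.9) against 31.3 to 39.2 CPM (median 34.9). The groups did not overlap for these genes, but the differences were small beside that of the unnamed gene: log2 fold changes were 0.47 for Lrrc17, 0.37 for Arl4a and 0.23 for both Dph3 and Eif1ad.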

How the data were processed

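The deposited table holds raw read counts per Ensembl gene, made with featureCounts 2.1.1 at strand setting 2 (reverse) on the Ensembl release 114 annotation of GRCm39, with no option for paired reads or multi-mapping reads, per the file headers. Tools named in the submitters' processing notes are STAR 2.7.10a, Subread 2.0.3, Salmon 1.9.0 and DESeq2 1.44.0. The library kit is not given in the sources used here. The table's other 11 sample columns were left unread in every step. Symbols came from GENCODE M21 and matched 51487 of 78317 gene IDs. The name of ENSMUSG00000130840 was not matched.

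In R 4.3.3, genes were filtered with filterByExpr of edgeR 4.0.16 (at least 10 counts, 15 in all) and scaled by TMM. The two-sided test was edgeR's quasi-likelihood F test in its robust form, adjusted by Benjamini-Hochberg over the 17130 genes tested, with calls below 0.05. SEs come from the F statistic. CPM used TMM factors over all 12 libraries, and log2 CPM carried a prior count of 2. Intervals are at 95%, and those of counts cover counting error only, since PCR copies are not independent molecules. The steps were tested on simulated counts. Genes named were the 3 members, called list members or otherwise the 2 with the smallest p of each list, the nearest tested neighbour on each side with the 3 of smallest p, and the 5 most alike over 12 libraries, 1 of which is not reported here. Rpn1, Rpn2, Stt3a, Ddost, Napepld, Faah, Cnr2 and Abhd5 were chosen after their values were seen. Gm10366 and Scgb1a1 were also named outside that rule. The members and lists were chosen with earlier results of these data known. Alternatives were all 12 libraries, each library left out, other scaling (DESeq2 1.42.0 size factors, none, upper quartile), the DESeq2 Wald test, limma 3.58.1 voom with quality weights, no filter, 1 CPM in 5 libraries and a threshold of 0.1.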

Additional observations from a re-analysis of the deposited data

Results flagged for a closer look

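ENSMUSG00000130840 had 15 counts in injured-sire replicate 16, a library outside the fitted comparison, against 0 to 2 counts in the uninjured-sire libraries. It stands here because the library was left out of the fit. The gene was chosen with all 12 libraries in view and for its low counts in the uninjured-sire group, so this value is a description with no test and no independent support. No library stood apart from its group in the levels of the 3 genes or in the proportions between them, over 10 groups of 6 values looked at with Dixon's ratio.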

How the results depend on the processing

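The log2 fold change of ENSMUSG00000130840 ran from 3.96 to 4.55 without each single library and from 3.90 to 4.39 under 7 other settings. The gene fell out under a filter of 1 CPM in 5 libraries, which gave no value. Its call in the comparison that chose it (edgeR adjusted p = 0.0296) was lost without any of 7 libraries, injured-sire replicates 13, 14, 15 and 17 and uninjured-sire replicates 19, 21 and 23 (edgeR adjusted p = 0.0501 to 0.124), and the DESeq2 Wald test gave it no adjusted p, as for 2326 genes. The log2 fold change of Dad1 ran from 0.05 to 0.13 and was never called. That of Abhd4 ran from -0.03 to 0.07, below 0 only without injured-sire replicate 17, and was never called. The 5 lists and the chromosome 14 neighbours had 0 calls without each of 11 libraries and under 8 other settings, the threshold of 0.1 not among them. Over all genes, calls numbered 18, and 134 with the DESeq2 Wald test, 236 with no filter, 28 with the filter of 1 CPM and 49 at a threshold of 0.1. Without 1 library they ran from 8 to 43: leaving out injured-sire replicates 12, 13 and 14 gave 28, 8 and 9, and leaving out uninjured-sire replicates 22 and 23 gave 43 and 9. The split was 9 higher and 9 lower, 17 and 8 with no scaling factor and 7 and 12 with upper-quartile factors. The causes were not tested. Arl4a passed under 7 alternatives and Lrrc17 under the DESeq2 Wald test. With all 12 libraries Spcs2 moved to -0.10 and Oxa1l to 0.09 on the log2 scale, and Oxa1l fell to 0.03 without injured-sire replicate 12, 13 or 17. No paired analysis was possible because no replicate number occurs in both groups. With 0 to 2 counts in the uninjured-sire libraries, depth limits how low the unnamed gene can be measured there.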
